A study of Mus musculus with 20 samples.

Results

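The mouse genome names many genes only for a coiled coil, a rod of helices wound around each other through which a protein pairs with itself or with a partner, and such genes carry the prefix Ccdc with a number. All genes whose array symbol is Ccdc followed by a digit were taken, each through whichever of its single-symbol probe sets was brightest, by mean log2 intensity over the arrays. This gave 119 Ccdc genes of 18193 genes with such a probe set. A floor on dim values, described under the processing, left 115 Ccdc genes of 16429 genes for testing. The 4 that did not pass it, Ccdc17, Ccdc85a, Ccdc183 and Ccdc201, had no day mean above 22.8 intensity units. The symbol Ccdc42os, of a transcript opposite to a Ccdc gene, meets the rule and was kept. Total RNA of whole mouse testis was hybridised to 20 single-channel arrays, 2 for each day: days 0, 3, 6, 8 and 10 and days 14, 18, 20, 30 and 35 after birth. The labels give no strain, genotype or treatment, and they do not say whether the 2 arrays of a day stand for separate animals. The p-values therefore speak only of the spread seen among these arrays, which may be technical.

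The Ccdc name groups proteins by shape, not by function. In motile cilia and in the sperm tail, CCDC39 and CCDC40 set the repeat along each doublet microtubule, CCDC114 and CCDC151 dock the outer dynein arms, and CCDC65 belongs to the nexin-dynein regulatory complex. Other Ccdc proteins act at centrioles, in endosome recycling, in splicing or in signalling at the cell cortex, in cells of every kind. After birth the mouse testis runs through its first wave of sperm formation: spermatogonia multiply, their daughters enter meiosis as spermatocytes, and round and then elongating spermatids follow, so each later day holds a later germ cell.

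Intensities are on a linear scale, and a difference is on the scale log2(intensity + 7.83), the constant being the pooled 20th percentile. A difference was called at a limma adjusted p under 0.05 over all 16429 genes and at least 2-fold in size. "Rose with meiosis" stands for a call of higher on day 14 against day 8, "rose with spermatids" for day 30 against day 20, and "fell" for lower on day 35 against day 0. These names stand for windows of days, and other cells change in the same windows. Errors are SD over the 2 arrays of a day (n = 2) or the SE of a fitted log2 difference. In whole testis, fewer cells of a type and less RNA per cell cannot be told apart.

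All 5 spermatocyte markers were called higher on day 14 against day 8, and all 5 elongating spermatid markers on day 30 against day 20. Of the spermatocyte markers, 3 had already been called higher on day 8 against day 0, and 2 were called higher on day 20 against day 14. Of the elongating spermatid markers, 3 had already been called higher on day 20 against day 14. Of 5 round spermatid markers, 1 was called higher on day 14 against day 8, 4 on day 20 against day 14 and 4 on day 30 against day 20. Their sum was 195 to 212 units on day 14, 1430 to 1454 on day 20 and 6593 to 6986 on day 30. The elongating spermatid list summed to between 43879 and 44310 units on day 30, against 265 to 305 on day 20. The spermatogonia markers followed no single course: their sum was 303 to 320 units on day 0, 2086 to 2111 on day 10, 1128 to 1303 on day 14 and 2313 to 2346 on day 35. Of 5 macrophage markers, 3 were also called higher on day 14 against day 8. Their sum was 839 to 919 units on day 8 and 1853.5 to 2350 on day 14. On day 35 against day 0, 4 of 5 Sertoli cell, 4 of 5 peritubular and 5 of 5 endothelial markers were called lower, beside 27.6% of all genes. The remaining Sertoli cell marker was called higher. Array medians lay between 29.4 and 43.4, and replicate arrays had a Pearson's r across genes of 0.952 to 0.986. The 20th percentile of the arrays ran from 5.12 to 6.65 on days 0 to 14 and from 9.41 to 12.9 on days 18 to 35. Day 20 against day 14 and day 35 against day 0 straddle this step in the dimmest values, and its part in their counts was not tested. The array titled day 18 replicate 2 carries day 0 in another label. It was kept under its title. It is on none of the days compared, but it enters the shared estimate of spread, the F test and the day 18 means. Without it, the counts of called Ccdc genes were as reported here.

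Ccdc genes rose at meiosis and between days 14 and 20 in a larger share than all genes did, and those that fell were fewer. On day 14 against day 8, 22 of 115 (19.1%) were called higher, against 5.48% of all genes tested, and 0 were called lower, against 2.5% of all genes. At an unadjusted p under 0.05 in the limma fit, 10 Ccdc genes had a lower level on day 14, and none of these differed by 2-fold. On day 20 against day 14, 45 (39.1%) were called higher, against 18.2% of all genes, and 1 was called lower, against 11.2%. On day 30 against day 20, 14 (12.2%) were called higher, against 9.84% of all genes, and 4 (3.48%) lower, against 6.73%. On day 35 against day 0, 61 (53%) were called higher, against 27.3% of all genes, and 18 (15.7%) lower, against 27.6%. The shares of day 30 against day 20 and of day 8 against day 0 lie near those of all genes. The median log2 difference of the Ccdc genes was 0.23 on day 14 against day 8, 0.56 on day 20 against day 14, -0.08 on day 30 against day 20 and 1.29 on day 35 against day 0, beside -0.02, 0.01, -0.10 and -0.03 over all genes.

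**Figure D1:**
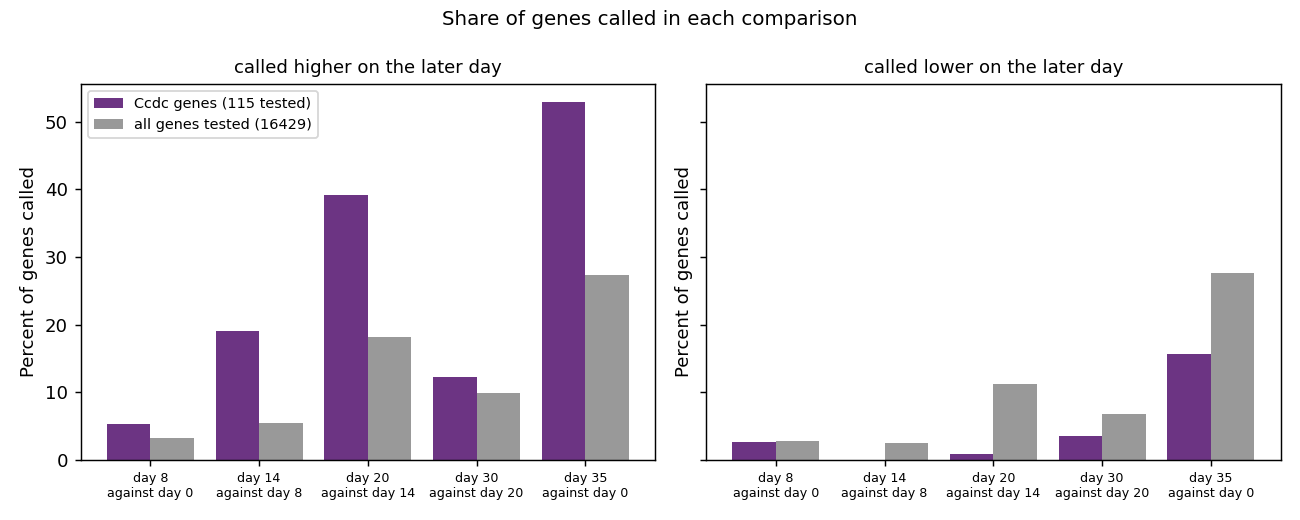
Share of genes called higher and called lower, in percent, for the 115 tested Ccdc genes and for all 16429 genes tested, in each of the 5 comparisons of days. The Ccdc share called higher is 39.1% on day 20 against day 14 and 53% on day 35 against day 0, and no Ccdc gene is called lower on day 14 against day 8.

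When each array was scaled to a common median, the median of all genes moved by -0.19 on day 20 against day 14, -0.18 on day 30 against day 20 and -0.12 on day 35 against day 0. The Ccdc genes called lower then numbered 8 beside 44 called higher on day 20 against day 14, and 12 beside 12 on day 30 against day 20. The shares of all genes called were not counted under this scaling. Whether falls were still fewer among Ccdc genes than among all genes is therefore not shown there. The counts of rises differed less from those above.

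Of the 22 Ccdc genes that rose with meiosis, 17 (77.3%) rose again on day 20 against day 14, beside 511 of the 900 genes (56.8%) that rose with meiosis among all genes tested. Through the chosen probe sets, none of the 22 rose with spermatids, beside 71 of the 900 (7.89%). Another probe set of Ccdc89, which rose with meiosis, was called higher on day 30 against day 20. Of the 14 that rose with spermatids, 11 (78.6%) had already risen on day 20 against day 14, beside 601 of 1616 among all genes (37.2%). Neighbouring windows share the arrays of day 14 or of day 20, and these shares were not tested. A further 17 rose on day 20 against day 14 alone, so 53 genes rose in at least 1 of the 3 windows. None of the 18 that fell had risen in any of these windows, as in nearly all genes that fell, where 61 of 4536 had (1.34%). This holds for the chosen probe sets. Other probe sets of Ccdc6, Ccdc50, Ccdc91 and Ccdc93, all among those that fell, were higher on day 30 than on day 20. The other 44 tested genes belong to none of these classes, although 27 of them changed over the time course by limma's moderated F test. That F test, with day means at least 2-fold apart, called 95 Ccdc genes (82.6%), against 77.6% of all genes.

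**Figure D2:**
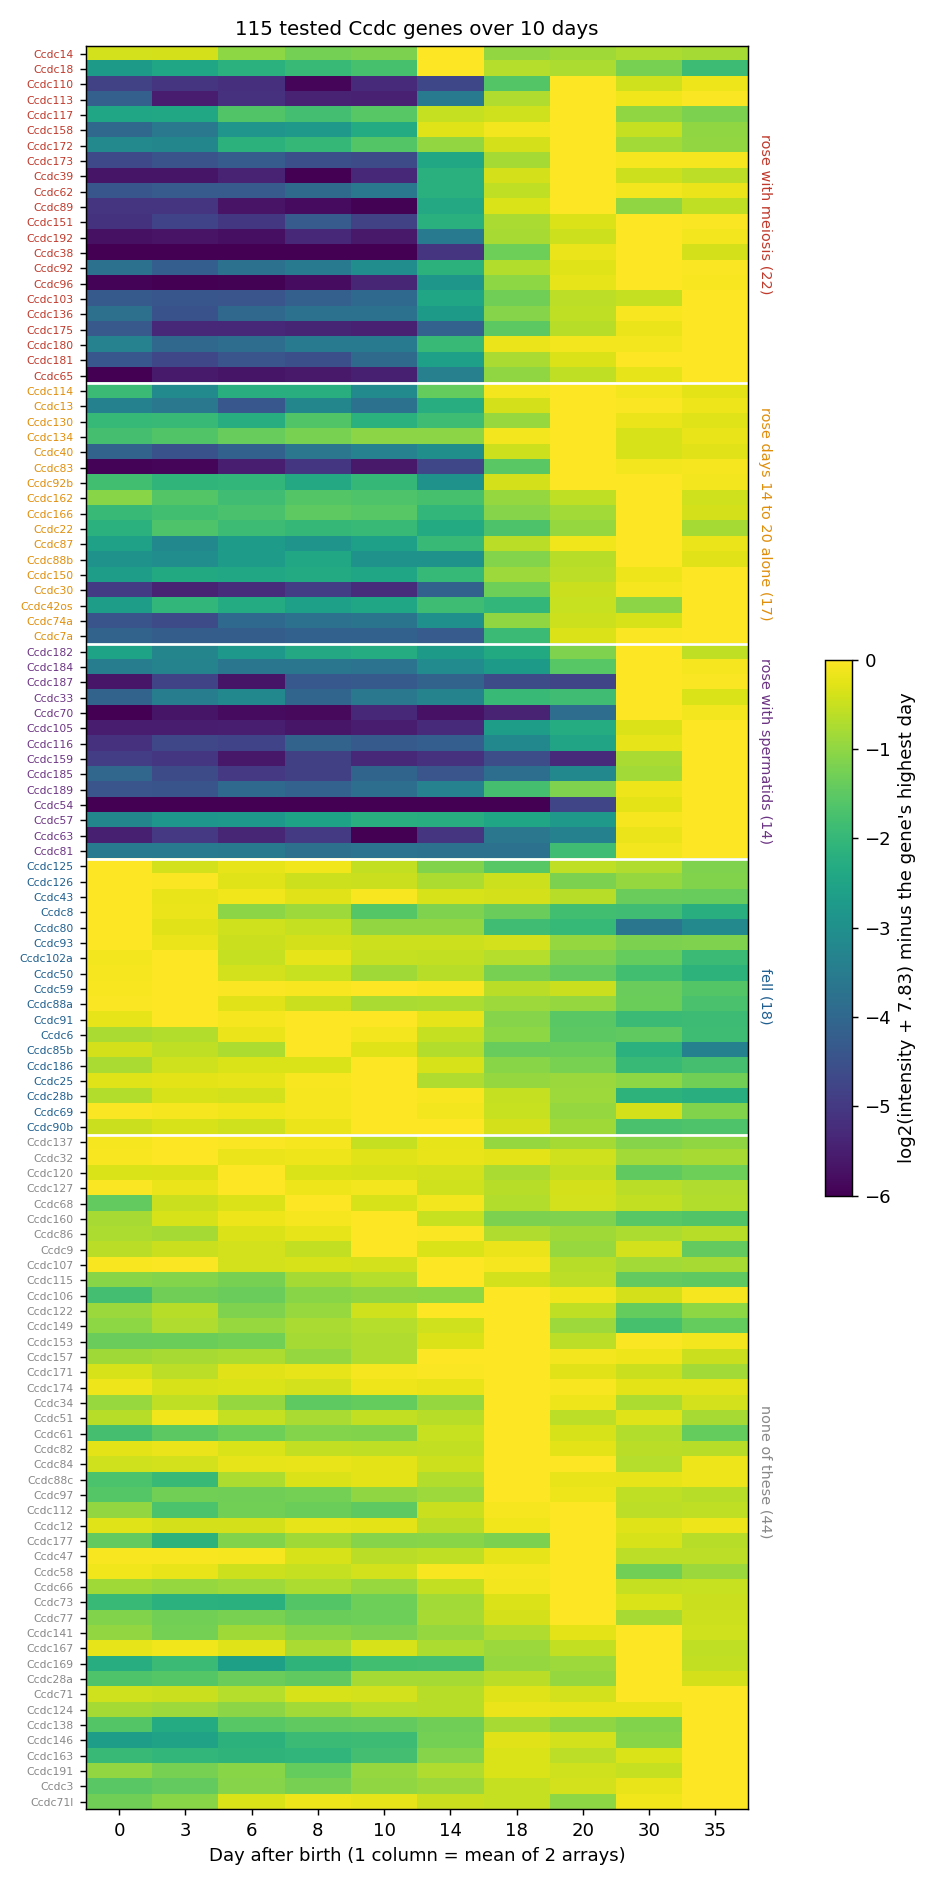
Day means of the 115 tested Ccdc genes on the log2(intensity + 7.83) scale, each row a gene shown relative to its own highest day, grouped by class. Genes that rose with meiosis brighten at day 14, those that rose with spermatids at day 30, and those that fell are brightest in the early columns.

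The highest mean of a Ccdc gene rarely fell in the early testis. It was day 30 or 35 for 47 of 115 (40.9%), beside 33.7% of all genes, and days 14 to 20 for 42 (36.5%), beside 23.8%. Only 26 (22.6%) had their highest mean on days 0 to 10, beside 42.5% of all genes. All 14 genes that rose with spermatids reached 50% of their highest mean on day 30 and not before. Those that rose on day 20 against day 14 alone did so on day 18 (6 genes) or day 20 (11 genes). Of the 22 that rose with meiosis, 3 did so on day 14, 11 on day 18 and 7 on day 20. The remaining gene, Ccdc14, was already past that level on day 0. The 2-fold calls that define these classes already place the earlier day of each window below 50% of the highest mean. That part of the timing follows from the class rule and is no separate result.

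Ccdc39 had the largest rise at meiosis. Its arrays read 28.2 and 26.4 on day 0, 30.3 and 23.5 on day 3, 28.6 and 37.4 on day 6, 17.3 and 19.0 on day 8, 36.7 and 36.5 on day 10, 397 and 362 on day 14, 1307 and 1368 on day 18, 1782 and 1732 on day 20, 1338 and 1199 on day 30 and 1149 and 1163 on day 35. Both arrays of every day from 14 on lie above all arrays of days 0 to 10, and day 20 is the peak. The difference was 3.90 ± 0.13 on day 14 against day 8 (adjusted p = 3.47e-14), and day 20 was higher than day 14 by a further 2.19. Ccdc89 had the next largest rise. It read 152 and 137 on day 14, against 6.25 and 6.00 on day 8, and 785 and 794 on day 20. Its difference on day 14 against day 8 was 3.45 ± 0.26 (adjusted p = 4.92e-09), and it was also called lower on day 30 against day 20, at -1.01. That call ended under quantile normalization, at -0.88, and without day 30 replicate 2, at -0.97, or day 20 replicate 2. Ccdc96, whose product was placed on the axoneme by work in the ciliate Tetrahymena, read 144 and 121 on day 14, against 9.78 and 10.1 on day 8, a difference of 2.98. It then read 1008 and 966 on day 30, against 897 and 780.4 on day 20.

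The remaining leading rises at meiosis were smaller or began from dimmer values. Ccdc158 read 187 and 199.7 on day 14, against 29.5 and 26.5 on day 8, a difference of 2.49. It had already been called higher on day 8 against day 0, by 1.20, and its highest mean, 237 ± 11.7, came on day 20. Ccdc65, Ccdc151, Ccdc173 and Ccdc113, all axoneme genes described with that list, rose by 2.24, 2.22, 2.11 and 1.99. Ccdc14, Ccdc18, Ccdc117, Ccdc158 and Ccdc172 were the 5 that did not rise again on day 20 against day 14. Of these, Ccdc18 and Ccdc117 are named after their values were seen, and the call of Ccdc117 ended without day 14 replicate 1, at 0.96. Ccdc14 and Ccdc18 had their highest mean on day 14. The means of Ccdc18 were 85.0 on day 8, 356 on day 14, 222 on day 18 and 89.7 on day 35. Ccdc172 stands just inside the 2-fold limit, at 1.01 (0.83 without day 14 replicate 1), and Ccdc87 and Ccdc13 just outside it, at 0.99 and 0.98.

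Promoter windows of the 3 genes with the largest rise in this class and a single window are shown to compare how densely they carry CG pairs, the dinucleotide that marks one kind of mouse promoter. Each window runs from 250 bases before to 50 bases after the RefSeq start (GRCm38.p6), read 5′ to 3′ on the gene's strand, with each CG pair in capitals. That of Ccdc39 lies at chr3:33844261-33844560 on the minus strand, that of Ccdc89 at chr7:90426062-90426361 on the plus strand and that of Ccdc96 at chr5:36484338-36484637 on the plus strand.
Ccdc39: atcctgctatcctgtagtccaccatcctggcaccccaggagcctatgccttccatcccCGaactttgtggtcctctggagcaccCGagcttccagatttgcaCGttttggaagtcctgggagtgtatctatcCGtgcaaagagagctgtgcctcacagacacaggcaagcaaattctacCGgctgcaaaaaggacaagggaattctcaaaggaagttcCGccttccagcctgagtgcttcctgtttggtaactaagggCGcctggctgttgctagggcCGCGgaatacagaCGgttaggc
Ccdc89: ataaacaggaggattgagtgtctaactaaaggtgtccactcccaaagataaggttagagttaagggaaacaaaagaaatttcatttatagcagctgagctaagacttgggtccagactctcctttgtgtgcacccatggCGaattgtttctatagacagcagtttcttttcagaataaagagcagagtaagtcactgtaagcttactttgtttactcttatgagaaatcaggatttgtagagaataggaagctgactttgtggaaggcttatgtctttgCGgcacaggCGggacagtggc
Ccdc96: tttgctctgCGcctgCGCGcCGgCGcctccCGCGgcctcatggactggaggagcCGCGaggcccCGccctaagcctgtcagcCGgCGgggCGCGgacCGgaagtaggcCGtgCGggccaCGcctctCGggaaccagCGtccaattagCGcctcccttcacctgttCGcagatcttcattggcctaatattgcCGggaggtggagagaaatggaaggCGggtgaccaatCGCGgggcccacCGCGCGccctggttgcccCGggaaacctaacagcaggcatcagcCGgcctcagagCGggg
The windows hold 10, 3 and 32 CG pairs in that order.

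The 8 largest rises on day 20 against day 14 began from day 14 means between 3.27 (Ccdc7a) and 69.0 units (Ccdc113). Of these genes, Ccdc38, Ccdc110, Ccdc113, Ccdc175 and Ccdc192 had already risen with meiosis. Ccdc38, whose product sits on the manchette that shapes the sperm head in mice, had the largest rise. Its arrays read 13.6 and 17.8 on day 0, 9.56 and 10.7 on day 3, 5.39 and 9.52 on day 6, 9.12 and 4.88 on day 8, 12.8 and 3.48 on day 10, 50.7 and 46.2 on day 14, 716 and 793 on day 18, 1656 and 1692 on day 20, 2058 and 1728 on day 30 and 1456 and 1457 on day 35. Day 20 was higher than day 14 by 4.90 ± 0.23 (adjusted p = 3.06e-12), after a rise of 1.94 on day 14 against day 8. Ccdc83 had 662 and 618 on day 20, against 22.7 and 10.8 on day 14, a difference of 4.76. Ccdc110 had 635 and 522 on day 20, against 16.8 and 12.6 on day 14, a difference of 4.70. Both were within 22.7 units until day 14. Ccdc7a, Ccdc30, Ccdc113, Ccdc175 and Ccdc192 followed with 4.02, 3.66, 3.50, 3.46 and 3.10. Ccdc30 went on to be among the brightest, at 1101 ± 13.0 on day 35.

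Values this close to the floor make the size of a rise depend on the added constant. With every value raised to at least the pooled median of 34.6 in place of the constant, 34 Ccdc genes were called higher on day 20 against day 14, 33 of them among the 45, and 17 on day 14 against day 8, 14 of them among the 22. The rises at meiosis of Ccdc38, Ccdc65, Ccdc110, Ccdc113, Ccdc151, Ccdc175 and Ccdc192 were among those not called with that floor, and all of their day 8 values lie below it. Ccdc91 was the Ccdc gene called lower on day 20 against day 14, by -1.31, and its probe sets disagree, as described with the endosome genes.

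Ccdc54, of the spermatid class, had the largest net rise. It read 1.05 and 3.14 on day 0, 0.587 and 1.05 on day 3, 7.19 and 0.747 on day 6, 1.11 and 1.19 on day 8, 2.72 and 0.906 on day 10, 1.23 and 0.97 on day 14, 21.7 and 7.82 on day 18, 88.9 and 35.9 on day 20, 1723 and 1409 on day 30 and 1824 and 1906 on day 35. No array before day 18 exceeds 7.19 units, and the lowest array of days 30 and 35 is at 1409. The difference on day 30 against day 20 was 4.59 ± 0.38 (adjusted p = 1.1e-08), and on day 35 against day 0 it was 7.57, the largest of any Ccdc gene. Ccdc187 had the largest step of the class. It read 471 and 436 on day 30, against 10.2 and 8.81 on day 20, a difference of 4.73 ± 0.38 (adjusted p = 6.34e-09). Ccdc159 read 257 and 230.4 on day 30, against 2.90 and 3.51 on day 20, a difference of 4.51, and 434 and 409 on day 35. Neither Ccdc187 nor Ccdc159 had risen on day 20 against day 14, where their differences were -0.65 and -0.09.

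Among the other spermatid genes, Ccdc70 read 581 and 607 on day 30, against 23.1 and 43.9 on day 20, and rose by 3.91. Ccdc63 and Ccdc57 rose by 3.20 and 2.73, and Ccdc185 and Ccdc116 by 2.42 and 2.26. Ccdc57 differed from the rest in its early level: it stood at 80.8 ± 15.1 on day 10, and its 2 arrays of day 20 were apart, at 73.2 and 33.3. Over the class, day 14 means ran from 1.10 to 78.1 and day 30 means from 116 to 1566. Ccdc189, at 1.01, stands just inside the limit of this class and Ccdc22, at 0.95, just outside it. Ccdc189 was not called under quantile normalization, at 0.97, or without day 20 replicate 1, at 0.90. The 4 genes called lower on day 30 against day 20 were Ccdc80, Ccdc58, Ccdc28b and Ccdc89, at -1.69, -1.27, -1.27 and -1.01. When all probe sets of a gene were averaged, none of these 4 was called.

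**Figure D3:**
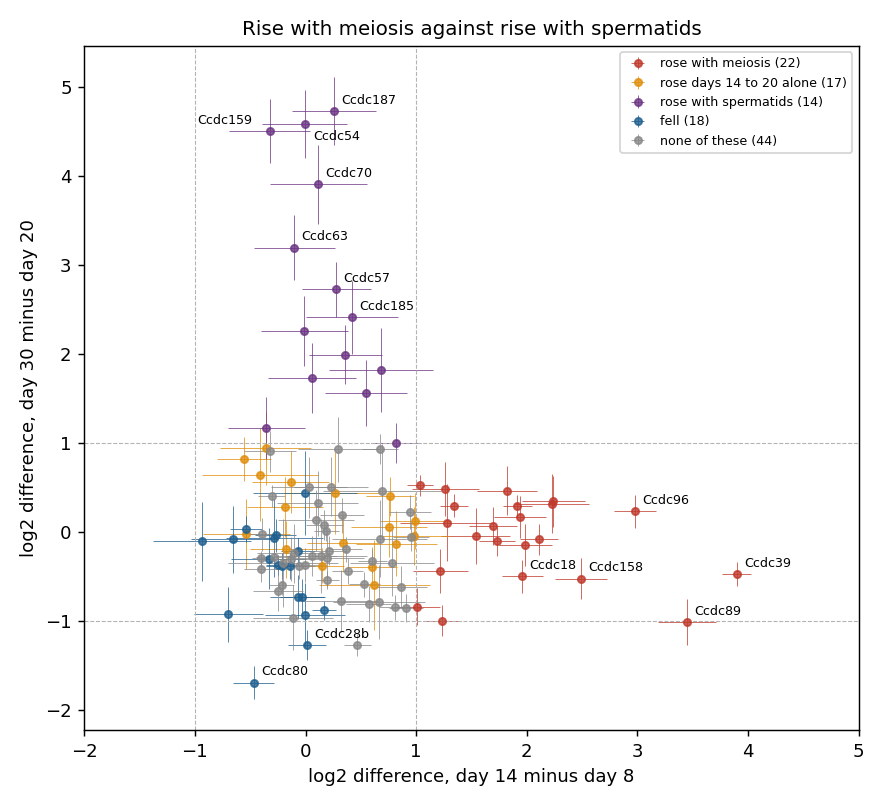
Log2 difference on day 14 against day 8 (horizontal) and on day 30 against day 20 (vertical) for each tested Ccdc gene, coloured by class, with SE bars and dashed lines at the 2-fold limits. No Ccdc gene was called higher in both comparisons, beside 0.432% of all genes tested, and 115 genes are too few to set these shares apart. The 22 that rose with meiosis spread to the right, up to 3.90, and the 14 that rose with spermatids spread upwards, up to 4.73.

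The windows of the leading spermatid genes are given for the same comparison, again with CG pairs in capitals. That of Ccdc187 lies at chr2:26294508-26294807 on the minus strand, that of Ccdc54 at chr16:50591105-50591404 on the minus strand and that of Ccdc159 at chr9:21927221-21927520 on the plus strand (GRCm38.p6).
Ccdc187: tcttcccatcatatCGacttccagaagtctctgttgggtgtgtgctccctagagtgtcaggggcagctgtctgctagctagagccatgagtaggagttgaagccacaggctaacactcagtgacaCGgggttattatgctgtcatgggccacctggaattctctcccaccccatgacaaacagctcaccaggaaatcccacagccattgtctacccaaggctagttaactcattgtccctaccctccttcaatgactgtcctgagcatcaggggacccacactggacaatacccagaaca
Ccdc54: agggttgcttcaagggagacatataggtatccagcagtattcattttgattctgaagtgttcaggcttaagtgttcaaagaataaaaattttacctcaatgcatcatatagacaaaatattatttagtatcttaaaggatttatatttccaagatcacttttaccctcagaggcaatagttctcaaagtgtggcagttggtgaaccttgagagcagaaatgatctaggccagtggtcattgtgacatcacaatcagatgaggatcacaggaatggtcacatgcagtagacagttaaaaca
Ccdc159: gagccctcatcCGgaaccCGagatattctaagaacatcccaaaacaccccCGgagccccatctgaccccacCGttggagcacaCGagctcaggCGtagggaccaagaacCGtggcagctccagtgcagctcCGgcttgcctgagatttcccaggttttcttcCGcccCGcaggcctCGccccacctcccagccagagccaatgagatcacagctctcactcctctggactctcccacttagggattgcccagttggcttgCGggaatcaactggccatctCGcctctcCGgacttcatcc
The window of Ccdc187 holds 2 CG pairs, that of Ccdc54 holds 0 and that of Ccdc159 holds 14.

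Over the class, 12 of the 14 spermatid genes had a window, 17 windows in all, and their median ratio of observed to expected CG pairs was 0.282. It was 0.698 over 24 windows of genes that rose with meiosis, 0.758 over 15 windows of genes that rose on day 20 against day 14 alone and 0.671 over 14 windows of genes that fell. Over all 120 windows of Ccdc genes it was 0.663, beside 0.384 over 32851 windows of all genes. A ratio under 0.5 was found in 11 of the 17 spermatid windows (64.7%), in 5 of the 24 meiosis windows (20.8%), in 31 of the 120 Ccdc windows (25.8%) and in 58.1% of all windows. By median, the spermatid windows had a lower ratio than those of the other Ccdc classes, and of these classes they lay nearest to all windows. Some genes have several windows, so these shares are descriptions.

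Motif letters were searched on both strands of the same windows. The letters AACTGNC, a core that MYB proteins bind, were in 4 of 17 spermatid windows (23.5%) and 2 of 24 meiosis windows (8.33%), beside 14.2% of Ccdc windows and 12.8% of all windows. The letters GTTGCCA, part of the site of RFX factors, which act on cilium genes, were in 8.33% of Ccdc windows and 4.38% of all windows. The letters TGACGT, part of the site of CREB and CREM, were in 5 of 24 meiosis windows (20.8%), 2 of 17 spermatid windows (11.8%), 14.2% of Ccdc windows and 7.51% of all windows. In the windows printed above, the MYB letters start at bases -59 and +38 of Ccdc54 and at base +19 of Ccdc159, counted from the RefSeq start.

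None of the 18 genes that fell was on the axoneme or sperm lists, and 4 were on no role list. Ccdc80, which encodes a secreted matrix protein, fell most. Its arrays read 401 and 417 on day 0, 327 and 346 on day 3, 291 and 309.6 on day 6, 262 and 303 on day 8, 185 and 223 on day 10, 175 and 232 on day 14, 109 and 109 on day 18, 86.8 and 109 on day 20, 18.6 and 32.5 on day 30 and 41.0 and 35.5 on day 35. The highest array of days 30 and 35 is at 41.0, and the lowest of day 0 at 401. The difference on day 35 against day 0 was -3.18 ± 0.19 (adjusted p = 5.53e-12). Ccdc85b, known as a cell junction and transcription regulator, read 6.37 and 5.63 on day 35, against 111 and 89.2 on day 0, and fell by 2.96 on the log2 scale. Ccdc8, a partner of CUL7 and OBSL1 in the 3M complex of growth control, read 95.5 and 61.3 on day 35, against 382 and 405 on day 0, and fell by 2.25. A lower level of Ccdc8 was present early: its means were 394 on day 0, 346 on day 3 and 186 on day 6.

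Ccdc50, Ccdc102a, Ccdc59, Ccdc88a and Ccdc91 completed the 8 largest falls, at -2.08, -2.04, -1.72, -1.71 and -1.65. The falls of Ccdc50 and Ccdc91 are those of the chosen probe sets. Other probe sets of these genes rose by day 30, as described with the endosome genes. Ccdc88a, or girdin, which ties actin to receptor signalling, read 155 and 178 on day 35, against 531 and 591 on day 0, a gap the arrays do not bridge. The 2 day 35 arrays of Ccdc102a and of Ccdc59 were far apart, at 14.0 and 63.0 and at 8.88 and 39.5. Without day 35 replicate 1, Ccdc59 was at -0.97 and not called. Ccdc186, at -1.004, stands just inside the limit and Ccdc120, at -0.99, just outside. Somatic marker sums moved in both directions over the same days. The Sertoli list summed to 711 to 714 units on day 35, against 2250 to 2563 on day 0, and the peritubular list to 1810 to 2013, against 4395 to 4555. The endothelial list summed to 81.6 to 160 units on day 35, against 502 to 529 on day 0, and the Leydig list to 3005 to 4106, against 4794 to 4932. The macrophage list was higher, at 953 to 996 units on day 35, against 510 to 520 on day 0. Their part in the falls was not tested.

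The windows of 3 of the genes that fell through their chosen probe sets complete the comparison, with CG pairs in capitals. They lie at chr19:5457514-5457813 on the minus strand (Ccdc85b), chr7:16993652-16993951 on the plus strand (Ccdc8) and chr16:27388706-27389005 on the plus strand (Ccdc50) of GRCm38.p6.
Ccdc85b: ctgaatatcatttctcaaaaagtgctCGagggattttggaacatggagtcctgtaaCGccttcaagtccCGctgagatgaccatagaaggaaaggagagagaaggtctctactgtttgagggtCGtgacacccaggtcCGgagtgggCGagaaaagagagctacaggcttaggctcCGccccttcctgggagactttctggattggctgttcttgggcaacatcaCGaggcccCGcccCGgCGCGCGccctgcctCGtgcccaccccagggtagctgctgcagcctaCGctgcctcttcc
Ccdc8: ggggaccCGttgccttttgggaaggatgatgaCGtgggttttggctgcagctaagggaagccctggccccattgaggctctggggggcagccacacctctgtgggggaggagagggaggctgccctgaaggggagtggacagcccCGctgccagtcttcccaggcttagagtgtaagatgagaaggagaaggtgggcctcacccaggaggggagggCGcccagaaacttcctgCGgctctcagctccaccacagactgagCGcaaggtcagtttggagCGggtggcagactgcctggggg
Ccdc50: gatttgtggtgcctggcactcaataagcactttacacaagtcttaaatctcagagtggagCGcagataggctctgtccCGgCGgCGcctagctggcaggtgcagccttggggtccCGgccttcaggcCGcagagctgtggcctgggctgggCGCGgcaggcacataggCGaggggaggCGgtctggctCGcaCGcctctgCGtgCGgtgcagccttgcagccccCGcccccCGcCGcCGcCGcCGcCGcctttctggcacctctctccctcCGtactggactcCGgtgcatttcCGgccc
They hold 15, 7 and 24 CG pairs in that order. In the window of Ccdc8 the MYB letters start at base +17 and the CREB and CREM letters at base -221.

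The first 8 days brought few changes. On day 8 against day 0, 6 Ccdc genes (5.22%) were called higher, against 3.29% of all genes, and 3 (2.61%) lower, against 2.77%. The rises were those of Ccdc68, at 1.44, Ccdc88c, at 1.40, Ccdc187, at 1.28, Ccdc158, at 1.20, Ccdc172, at 1.19, and Ccdc71l, at 1.13. Ccdc88c, or Daple, which binds Dishevelled in Wnt signalling, read 139 and 132 on day 8, against 49.1 and 44.1 on day 0, and its arrays from day 10 on ran from 94.3 to 184. Ccdc113, Ccdc110 and Ccdc175 were lower on day 8, at -1.33, -1.09 and -1.04, before they rose with meiosis. The rises of Ccdc110 and Ccdc175 on day 14 against day 8, at 1.22 and 1.26, were about the size of these falls. Their level on day 14 was thus near that of day 0, and those 2 days were not compared. The calls of Ccdc187 (from 1.24 to 1.32), Ccdc71l (0.93), Ccdc110 (-0.88), Ccdc113 (-0.88) and Ccdc175 (-0.78 and -0.83) ended without single arrays of these days. All 3 that were lower were dim, and with a constant at the pooled 40th percentile 2 genes were called higher and 0 lower.

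**Figure D4:**
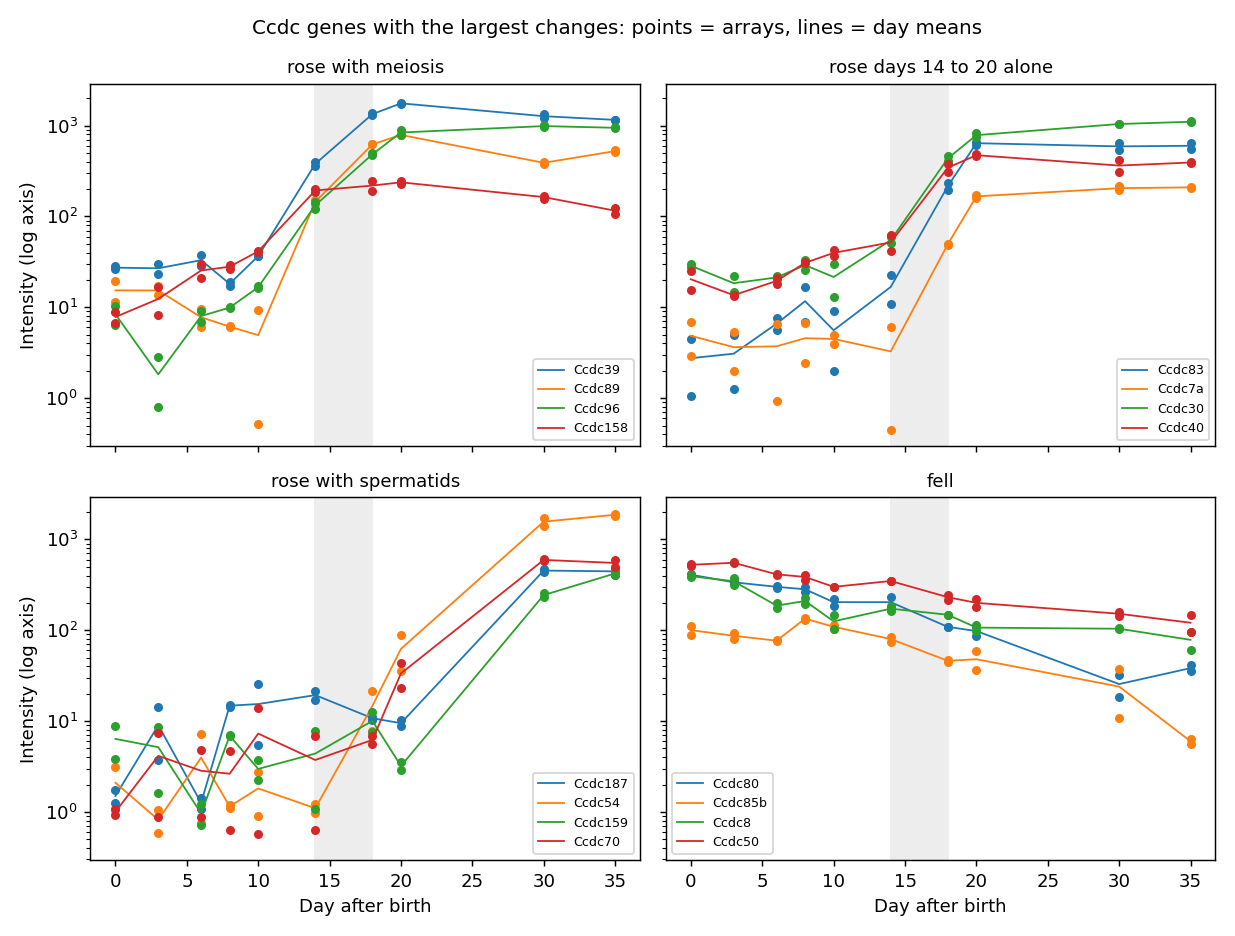
Intensity by day, on a log scale, for 4 genes of each class, with both arrays of a day as points and the day means joined; the shaded band marks the gap between days 14 and 18, where the dimmest array values step up. Ccdc39 climbs from day 14, Ccdc83 mainly between days 14 and 20, Ccdc54 and Ccdc187 mainly between days 20 and 30, and Ccdc80 is lowest on day 30.

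The 14 axoneme genes measured, of 24 listed, all rose over the first wave. All 14 were called higher on day 35 against day 0, with a median log2 difference of 4.51, beside 1.29 over the tested Ccdc genes and -0.03 over all genes. In the single windows, 8 rose with meiosis, 13 on day 20 against day 14 and 3 with spermatids, beside 5.48%, 18.2% and 9.84% of all genes. On day 35 against day 0, 27.3% of all genes were called higher. The first call of 2 partners came in different windows. Ccdc39 rose on day 14 against day 8, while its partner Ccdc40 read 62.1 and 41.5 on day 14, against 30.6 and 31.1 on day 8, a difference of 0.60 that was not called (adjusted p = 0.0545). Ccdc40 then read 463 and 481 on day 20, against 62.1 and 41.5 on day 14, and rose by 3.03 ± 0.22. Whether the steps of the 2 genes differ was not tested.

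The outer dynein arm genes showed 3 courses. Ccdc151 read 69.6 and 58.8 on day 14, against 16.4 and 1.90 on day 8, where the 2 arrays are apart, and 278 and 346 on day 35. Ccdc114, its docking partner, stayed dim, with 106 and 95.5 on day 20, against 33.8 and 31.6 on day 14, a rise of 1.42. Ccdc63, a relative of Ccdc114 needed in the mouse sperm tail, read 540.3 and 517 on day 30, against 62.2 and 40.8 on day 20, a rise of 3.20 ± 0.37 (adjusted p = 7.26e-07). Ccdc103, a dynein arm attachment factor, rose by 1.69 on day 14 against day 8 and read 504 and 536 on day 35. Ccdc65 of the nexin-dynein regulatory complex went furthest, with a mean of 565 on day 35, against 0.989 on day 0, a difference of 6.02 ± 0.28.

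Genes for proteins inside or along the doublet microtubules rose in the same span. Ccdc173 and Ccdc113 read 843 and 784 and 896 and 827 on day 20, against 156 and 134 and 69.4 and 68.6 on day 14. Ccdc181, a microtubule-binding protein of the mouse flagellum, was the brightest of the list on day 35, with 1644 and 1705 on day 35, against 73.8 and 74.0 on day 0. Ccdc105, a tektin-like protein of the sperm doublet, read 407 and 286 on day 30, against 98.7 and 64.3 on day 20, and rose by 1.99. Ccdc189 read 657 and 662 on day 30, against 301 and 349 on day 20. Ccdc146, a centriole and flagellum protein, was the only gene of the list in none of the windows, and at 49.3 ± 17.8 on day 35 it was the dimmest.

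Of 15 tested axoneme partners, 9 were called higher on day 14 against day 8, 13 on day 20 against day 14, 2 on day 30 against day 20 and 14 on day 35 against day 0. The shares of all genes called higher in these comparisons were 5.48%, 18.2%, 9.84% and 27.3%, so the count of day 30 against day 20 is near that of all genes. Rsph1, a radial spoke head protein, had a mean of 1730.0 on day 14, against 45.4 on day 8, and Zmynd10, a dynein assembly factor, 243, against 2.74. Iqca, of the nexin-dynein regulatory complex, was one of the 2 that rose with spermatids, with 254 on day 30, against 67.6 on day 20. Ciliated epithelium of the rete and efferent ducts also builds axonemes. Its 4 measured markers summed to between 1910 and 1938 units on day 30, against 1390 to 1404 on day 20, and to between 225 and 256 on day 14, against 65.6 to 72.8 on day 8. None of the 4 was at 0 on any array. Most of the later sum is Tekt1, at 1873 on day 35, which germ cells express too, while Ccno stayed between 12.0 and 42.1. The part of these cells in the axoneme rise was not tested.

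**Figure D5:**
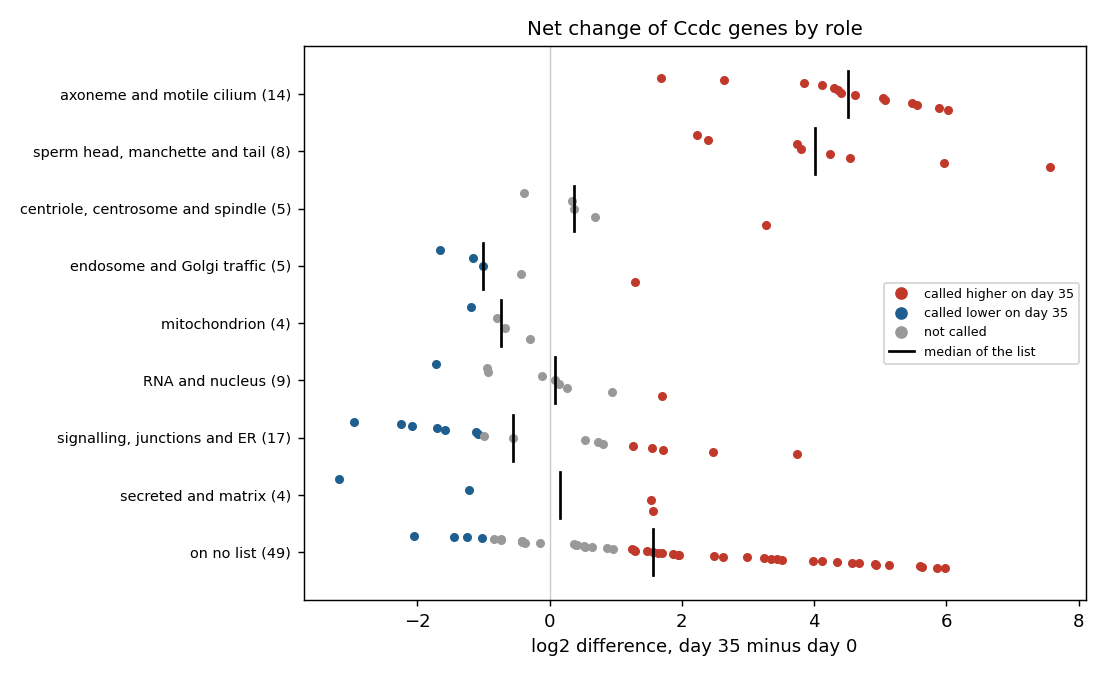
Log2 difference on day 35 against day 0 for each tested Ccdc gene (points, coloured by call), in rows by role list with the number tested, and the median of each list (bars). All 14 axoneme and all 8 sperm head, manchette and tail genes lie past the upper limit, while the endosome and signalling rows reach past both limits.

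All 8 measured genes of the 9 on the sperm head, manchette and tail list were also called higher on day 35 against day 0, with a median of 4.02. Of these, 5 rose with meiosis, 7 on day 20 against day 14 and 2 with spermatids, beside 5.48%, 18.2% and 9.84% of all genes. On day 35 against day 0, 27.3% of all genes were called higher. Ccdc136, needed to form the acrosome in mice, reached the highest level of any Ccdc gene, with 2489 and 2476 on day 35, against 157 and 186 on day 0. It was never dim, and it rose by 1.03 on day 14 against day 8 and by 2.15 on day 20 against day 14. The call at meiosis ended without day 14 replicate 1, at 0.87. Ccdc62, another acrosome gene of the mouse, read 162 and 121 on day 14, against 39.8 and 34.2 on day 8, and 700.3 and 657 on day 20. Ccdc87 read 144 and 135 on day 20, against 31.0 and 36.9 on day 14, a rise of 1.82. Ccdc33 read 163 and 233 on day 30, against 47.1 and 51.7 on day 20, a rise of 1.83. Ccdc172, known in the rat to bind a tektin of the sperm midpiece, had its highest mean on day 20, at 268 ± 5.26.

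Of 5 tested genes of centrioles and centrosomes, 1 rose with meiosis, 1 on day 20 against day 14 and 0 fell. The shares of all genes were 5.48%, 18.2% and 27.6%, and 5 genes are too few to set apart from them. The median log2 difference of the list was 0.36 on day 35 against day 0. Ccdc13, a centriolar satellite protein, was the one with a large change, with 493 and 482 on day 20, against 92.6 and 97.7 on day 14, a rise of 2.27. Ccdc14 was called at meiosis from dim values, 40.2 and 32.5 on day 14 against 14.1 and 7.11 on day 8, and the call ended in 8 of 34 alternative settings. Ccdc61, a basal body protein, had its highest mean on day 18, at 512 ± 9.67, Ccdc66 on day 20, at 465 ± 22.1, and Ccdc77 on day 20, at 262 ± 14.1. None of these 3 passed the 2-fold limit in a window.

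Of the 5 endosome and Golgi genes, 3 were called lower and 1 higher on day 35 against day 0 through their chosen probe sets. The shares of all genes were 27.6% lower and 27.3% higher. Ccdc93 and Ccdc22 are subunits of 1 complex, with COMMD proteins, that recycles receptors from endosomes. Ccdc93 read 83.0 and 94.7 on day 35, against 202 and 214 on day 0, a fall of 1.16. Ccdc22 read 147 and 128 on day 20, against 38.0 and 57.3 on day 14, a rise of 1.41 that was not called without day 14 replicate 1, at 1.16. Of 17 genes of the COMMD and WASH partners, 2 were called higher and 6 lower on day 35 against day 0, beside 27.3% and 27.6% of all genes. Commd5 was higher, with means of 1288 on day 35 and 195 on day 0, and Washc5 and Washc2 were lower, with 164 and 139 on day 35, against 843 and 669 on day 0. Ccdc115, a factor of the proton pump of these compartments, differed by -0.43, and Ccdc186, of vesicle formation, by -1.004.

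Several of these genes had probe sets that went opposite ways, a pattern picked out after the values were seen. Ccdc91, a partner of the GGA adaptors at the Golgi, read 88.8 and 75.4 on day 35, against 322 and 233 on day 0, through its chosen probe set. Through another probe set it read 1276 and 1101 on day 30, against 52.4 and 50.5 on day 20, and 1489.5 and 1591 on day 35. In a fit over all 45037 probe sets that step was 4.33 (adjusted p = 4.67e-13). A further probe set of the same gene read 592 and 505 on day 30, against 11.3 and 12.9 on day 20, a step of 4.80. Ccdc93 read 386 and 362 on day 30, against 70.1 and 52.2 on day 20, through another probe set, a step of 2.48. Ccdc50 read 954 and 879 on day 30, against 123 and 163 on day 20, through another probe set, a step of 2.63, while its chosen probe set read 143 and 161 and 221 and 179. In all 3 genes both arrays of day 30 lie above both of day 20 in a probe set other than the chosen one.

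Opposed calls in the same comparison occurred in 8 of the 53 Ccdc genes with several probe sets: Ccdc6, Ccdc22, Ccdc28b, Ccdc50, Ccdc89, Ccdc91, Ccdc93 and Ccdc141. Ccdc6 read 90.0 and 74.9 on day 30, against 4.19 and 10.7 on day 20, through another probe set. Ccdc89, lower on day 30 through its chosen probe set, read 629.5 and 599 on day 30, against 192 and 208 on day 20, through another probe set. When all probe sets of a gene were averaged on the log2 scale, the day 35 against day 0 difference turned to 1.89 for Ccdc91, 0.88 for Ccdc93, 0.38 for Ccdc6 and 0.35 for Ccdc50, and to -0.42 for Ccdc22. The direction of these 5 genes therefore depends on the probe set. For the called rises at meiosis the other probe sets were more even: of 13, 7 were called higher too, 6 were not called and 0 were called lower. On day 35 against day 0, of 61 other probe sets, 34 had the same call, 19 had none and 8 had the opposite one. Such counts were not made over all genes with several probe sets. Whether opposed probe sets are more common among Ccdc genes is therefore not shown.

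Of 4 tested mitochondrial genes, 1 fell by day 35, beside 27.6% of all genes. None rose with meiosis, on day 20 against day 14 or with spermatids, beside 5.48%, 18.2% and 9.84% of all genes. These 4 genes are too few to set apart from such shares. Their median was -0.73 on day 35 against day 0. Ccdc90b, a relative of the calcium uniporter regulator Mcur1, was the brightest Ccdc gene of the early testis, with 1291 and 1175 on day 10, and read 361 and 408 on day 35, against 902 and 871 on day 0, a fall of 1.19. Ccdc58, a protein of the intermembrane space, read 147 and 160.5 on day 30, against 373 and 389 on day 20. Ccdc51, a channel of the inner membrane, and Ccdc127 differed by -0.30 and -0.67 on day 35 against day 0. Of 5 tested uniporter genes, 2 were called lower on day 35 against day 0, beside 27.6% of all genes. They were Mcur1, at -1.41, and Micu2, at -1.58.

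Of 9 tested genes of RNA and the nucleus, 1 rose on day 20 against day 14 and 1 fell, beside 18.2% and 27.6% of all genes. The other 7 passed in neither, and 9 genes are too few to set apart from these shares. The median of the list was 0.08 on day 35 against day 0. Ccdc130, a splicing factor, rose, with 108 and 115 on day 20, against 27.4 and 22.2 on day 14. Ccdc59 fell, as given above. Ccdc174 had the flattest course of all tested Ccdc genes: its day means ran from 127 to 173, and the moderated F test did not pass (adjusted p = 0.304). Ccdc12, another splicing factor, had the next smallest range, with means from 428 to 659. The remaining members, Ccdc84, Ccdc86, Ccdc97, Ccdc9 and Ccdc137, differed by 0.27, 0.08, 0.95, -0.94 and -0.92.

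The list of signalling, junctions and ER held 7 of the 18 falls among its 17 tested genes, beside 5 that were called higher on day 35 against day 0. In that comparison 27.6% of all genes were called lower and 27.3% higher. The median of the list on day 35 against day 0 was -0.55. Besides Ccdc85b, Ccdc8, Ccdc88a and Ccdc50, the falls were those of Ccdc28b, a modifier of Bardet-Biedl syndrome in humans, Ccdc6, a partner in tumour fusions with RET, and Ccdc69, at -1.58, -1.10 and -1.08. The call of Ccdc69 held in 12 of 35 alternative settings. Ccdc6 read 442 and 432 on day 8 and 93.7 and 137 on day 35, and its call against day 0 ended without day 35 replicate 1, at -0.85. Ccdc92 went the other way, with 1019 and 1073 on day 35, against 60.1 and 83.6 on day 0, a difference of 3.74, and it rose with meiosis by 1.34. Ccdc88b, Ccdc106, Ccdc88c and Ccdc28a were also higher, by 2.47, 1.72, 1.55 and 1.26. Ccdc47, which helps insert membrane proteins in the ER, stayed between 419 and 647 units.

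Of 4 secreted proteins, Ccdc80 and Ccdc126 fell and Ccdc134 and Ccdc3 were higher on day 35 against day 0, for a median of 0.15. The shares of all genes were 27.6% lower and 27.3% higher. Ccdc3, first known as a product of fat and vessel cells, read 154 and 209 on day 35, against 50.8 and 63.9 on day 0, a difference of 1.53. Ccdc134 read 221 and 213 on day 20, against 93.1 and 108 on day 14, a rise of 1.05, which ended without day 14 replicate 1, at 0.95. Ccdc126 was dim and its 2 arrays of day 35 were apart, at 58.4 and 22.7, and the call ended in 5 of 35 alternative settings.

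Of the 49 tested Ccdc genes on no role list, 7 rose with meiosis, 19 on day 20 against day 14, 9 with spermatids and 4 fell, beside 5.48%, 18.2%, 9.84% and 27.6% of all genes. Of the 49, 29 were called higher on day 35 against day 0, beside 27.3% of all genes, for a median of 1.57. The genes Ccdc83, Ccdc110, Ccdc187, Ccdc159, Ccdc70 and Ccdc192 are among them. Their levels on day 35 were 599.5, 516, 444, 422, 550.1 and 446 units in that order. The Ccdc genes with a known part on meiotic chromosomes, Ccdc36, Ccdc79 and Ccdc155, were not measured under these symbols. Of 14 genes of that process under other names, 6 were called higher on day 8 against day 0, 8 on day 14 against day 8 and 1 on day 20 against day 14, while 0 were on day 30 against day 20, where 1 was lower. The shares of all genes called higher in these 4 comparisons were 3.29%, 5.48%, 18.2% and 9.84%, and 6.73% were lower in the last. Sycp2, of the chromosome axis, had means of 1972 on day 14 and 231 on day 8. The axoneme genes, by their own counts given above, had 8 of 14 calls on day 14 against day 8 and 13 of 14 on day 20 against day 14.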

How the data were processed

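Total RNA of whole mouse testis was extracted with Trizol, amplified in one cycle with biotin labelling and hybridised to 3′ expression arrays, per the labels' protocols. The authors deposited linear intensities for 45101 probe sets on 20 arrays, and these were used without further scaling. The summarization software and its settings are not given in sources used here. Precision is limited by the 2 arrays per day.

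Control probe sets (64) were left out. Of the others, 34945 had a single symbol in the platform annotation, 932 had several and 9160 were not listed. Each of 18193 genes was represented by its brightest probe set (mean of log2 intensity). Genes above an array's 40th percentile on at least 2 arrays (16429) were tested on log2(intensity + 7.83), the constant being the pooled 20th percentile, with limma 3.58.1 in R 4.3.3, day as a factor over all 20 arrays, two-sided, Benjamini-Hochberg adjusted over all genes per comparison. Genes named with values are the 8 largest called changes in each direction of a comparison, the members of role lists, those next to a limit, the brightest and the flattest; others are marked. The Ccdc genes and all lists were chosen with earlier results of these data known. The fit was tested on simulated data. RefSeq promoter windows (GRCm38.p6) were found for 96 of 119 Ccdc genes. Alternatives covered scaling, the added constant, filters, probe set choice, the model, the call limits and leaving out each array.

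Same-numbered arrays of different days did not deviate together: over 45 pairs of days the correlation of deviations ran from -0.025 to 0.056, so the numbers were not taken to pair samples.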

Additional observations from a re-analysis of the deposited data

How the results depend on the processing

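The counts of Ccdc genes called higher on day 20 against day 14, on day 30 against day 20 and on day 35 against day 0 stayed within 1.5 times of the values reported in every alternative run. Counts that moved further were mostly small. Lower on day 20 against day 14 (1) became 2 under quantile normalization, 8 with a common median, 3 with a constant at the pooled 5th percentile, 3 with a floor at the pooled median, 2 with probe sets averaged and 17 without a fold limit. Lower on day 30 against day 20 (4) became 12 with a common median, 1 with probe sets averaged and 29 without a fold limit. On day 8 against day 0, 6 higher and 3 lower became 2 and 0 with the floor, 2 and 0 with a constant at the pooled 40th percentile, and 16 and 11 without a fold limit. Without a fold limit, 36 were higher and 2 lower on day 14 against day 8, and 28 were lower on day 35 against day 0. The directions that reversed, all with probe sets averaged, were those of Ccdc22 (-0.42), Ccdc50 (0.35), Ccdc6 (0.38), Ccdc91 (1.89) and Ccdc93 (0.88) on day 35 against day 0 and Ccdc89 (0.29) on day 30 against day 20; the cause was not tested. Leaving out single arrays gave 5 to 7 higher and 1 to 3 lower on day 8 against day 0 (1 without day 8 replicate 1), 18 to 23 higher and 0 lower on day 14 against day 8, and 41 to 46 higher and 1 to 4 lower on day 20 against day 14 (4 without day 20 replicate 1). It gave 14 to 16 higher and 4 to 8 lower on day 30 against day 20 (8 without day 30 replicate 1), 59 to 61 higher and 15 to 18 lower on day 35 against day 0, and 91 to 98 genes in the F test. Besides the calls named with their genes, leaving out 1 array ended those of Ccdc28b on day 30 against day 20 (-0.96 without day 30 replicate 1), Ccdc175 on day 14 against day 8 (1.05 without day 8 replicate 1), Ccdc33 on day 20 against day 14 (1.03 without day 14 replicate 2), Ccdc185 there (0.84 without day 20 replicate 1, 0.90 without day 14 replicate 2), and Ccdc22 (0.82 without day 35 replicate 1, 1.09 without day 0 replicate 1) and Ccdc186 (-0.98 without day 0 replicate 2, and also without day 35 replicate 2) on day 35 against day 0. It also ended calls of Ccdc25, Ccdc42os, Ccdc43, Ccdc125, Ccdc150, Ccdc153, Ccdc162, Ccdc166 and Ccdc182. With the replicate number as a block, 17 genes were lower on day 35 against day 0, Ccdc69 no longer being called, and the block moved no other count. With 2 arrays a day and dim values near the array floor, the size of rises from dim levels is the least certain quantity.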
